A study of Mus musculus with 30 samples.

Results

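The genes described here are 9 CXC chemokines and a chemokine receptor, Cxcr4, in organs of mice given angiotensin II. They are Cxcl1, Cxcl2, Cxcl5, Cxcl9, Cxcl10, Cxcl12, Cxcl13, Cxcl14, Cxcl16 and Cxcr4, chosen by name, and all their 18 probe sets were taken. They are 10 of the 18193 genes that probe sets with a single gene symbol measured on the array. The animals were male C57BL/6 mice, 8 to 10 weeks of age. Osmotic pumps delivered angiotensin II, a blood-pressure-raising peptide hormone, in Ringer's solution, at a dose of 1500 ng per kg per minute. Heart was taken after 1, 3 or 7 days and from day 0 mice without angiotensin II, with 3 arrays a group. Kidney was measured at the same 4 times with 2 arrays each, brain on days 0, 3 and 7 with 2 arrays each, and vessel with a single array a day, which makes 30 arrays. The labels call the arrays of a group biological replicates. They give neither the mouse behind each organ nor whether day 0 mice carried a pump, and they do not say which vessel was dissected.

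CXC chemokines are small secreted proteins that guide white blood cells along gradients through receptors of the CXCR family. Cxcl1, Cxcl2 and Cxcl5 carry the glutamate-leucine-arginine motif of the neutrophil-attracting group and act on Cxcr2; their genes are switched on in inflamed tissue by interleukin 1, tumour necrosis factor and NF-κB. Cxcl9 and Cxcl10 are induced by interferons and draw activated T cells and NK cells through Cxcr3. The rest are largely made without inflammation: Cxcl12 by stromal cells for Cxcr4, Cxcl13 by the stroma of lymphoid follicles and by some macrophages for Cxcr5 of B cells, Cxcl14 by epithelia and fibroblasts, and Cxcl16 as a membrane-bound ligand of Cxcr6 that Adam10 sheds. Messenger RNA was measured, not protein.

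Values are array intensities on a linear scale, normalized by the authors. Differences are of log2(intensity + 16), which understates changes of dim genes, and are given ± their standard error from limma, and a gene was called when its p, adjusted by Benjamini-Hochberg over all tested genes, was under 0.05. A gene with several probe sets is represented by that with the highest mean of log2(intensity + 16) over all arrays. Only genes above the 40th percentile of at least as many arrays as the tissue's smallest group holds were tested. All 10 passed in heart, while 8 did so in kidney, 6 in brain and 9 in vessel. Cxcl5 passed in heart on 3 of 12 arrays, 2 of them from day 1, and Cxcl2 on 6 of 12, none from day 0, so both passed only through treated hearts.

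The arrays carried the markers of their labelled organs. The summed intensity of 5 cardiomyocyte genes was 62475 to 69336 in heart against 89.2 to 141 in kidney and 382 to 591 in brain, and that of 5 kidney epithelial genes was 17002 to 24174 in kidney. Some arrays stood apart. In kidney, the sum of 5 adipocyte genes was 12403 and 14336 at day 1 and 1955 and 21992 at day 3 against 1891 and 2104 at day 0, and adrenal cortex genes were high in replicate 2 of days 0 and 3. In heart, the sum of 10 neutrophil genes at day 1 was 5631, 8281 and 1742, so replicate 3 held the least. Day 0 heart replicate 1 had the highest interferon response of its group, with a list sum of 11508, 5371 and 5235 for replicates 1, 2 and 3. The vessel arrays held heart muscle RNA in unequal amounts, with a cardiomyocyte sum of 14887 at day 0 and 1589.8 at day 3.

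After 1 day of angiotensin II the 3 neutrophil-attracting chemokines rose in heart, and so did Cxcl10, while the other 6 genes were not called. That is 4 of 10 higher and none lower, beside 4.86% of all 14040 heart genes called higher and 8.57% called lower at the same time. The median difference was 2.22 for the neutrophil-attracting genes, 0.53 for the interferon-induced pair and -0.07 for Cxcl12, Cxcl13, Cxcl14 and Cxcl16, against -0.02 for all genes tested. Cxcl2 and Cxcl5 could be tested only because treated hearts were high, so the first count and median are a description. In these bulk samples, more cells of a type and more RNA per cell cannot be told apart.

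Cxcl1, a chemokine of stressed stromal cells, endothelium and macrophages, had intensities of 159, 159 and 198 in the 3 day 0 hearts and 551, 319 and 371 in the 3 day 1 hearts. At day 3 they were 305, 157 and 210.0, and at day 7 186, 216 and 269. All day 1 hearts lay above all day 0 hearts. The day 1 difference was 1.16 ± 0.23 (2.24-fold, n = 3 against 3, limma adjusted p = 0.0083), and it passed in each of the 12 fits that left out 1 heart array.

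Cxcl2, a neutrophil attractant made mainly by activated macrophages, measured 18.4, 18.3 and 16.6 at day 0 and 252, 272 and 34.8 at day 1. At day 3 it was 41.8, 13.5 and 16.9, and at day 7 19.8, 30.9 and 38.4. Day 1 replicate 3 was the lowest of its group but still above every day 0 heart. The difference at day 1 was 2.22 ± 0.50 (limma adjusted p = 0.014). No day 0 heart was above the filter level, and the size depended on the value added before the log, 2.85 with 1 and 1.42 with 64.

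Cxcl5, a neutrophil attractant of epithelia, platelets and smooth muscle, was 5.63, 5.65 and 8.96 at day 0 and 235, 278 and 18.8 at day 1. At day 3 it was 35, 7.80 and 12.1, and at day 7 6.51, 6.94 and 10.9. Again replicate 3 was the lowest of the day 1 hearts and lay above all of day 0. The difference was 2.59 ± 0.59 (limma adjusted p = 0.015). The day 0 intensities of Cxcl5 were below the added 16, and its size too depended on that value: 3.85 with 1 added and 1.53 with 64.

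The calls of Cxcl2 and Cxcl5 turned on single arrays. Without day 1 replicate 3 the difference of Cxcl2 was 3.04 and that of Cxcl5 3.58. Without replicate 1 or 2 of either day 0 or day 1 neither passed, with limma adjusted p from 0.053 to 0.081 for Cxcl2 and from 0.057 to 0.083 for Cxcl5. The median neutrophil gene of the marker list stood 1.29, 2.14 and 0.25 above the day 0 mean in day 1 replicates 1, 2 and 3, the same order of low and high hearts as for Cxcl2 and Cxcl5. Its part in these values was not tested.

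**Figure D1:**
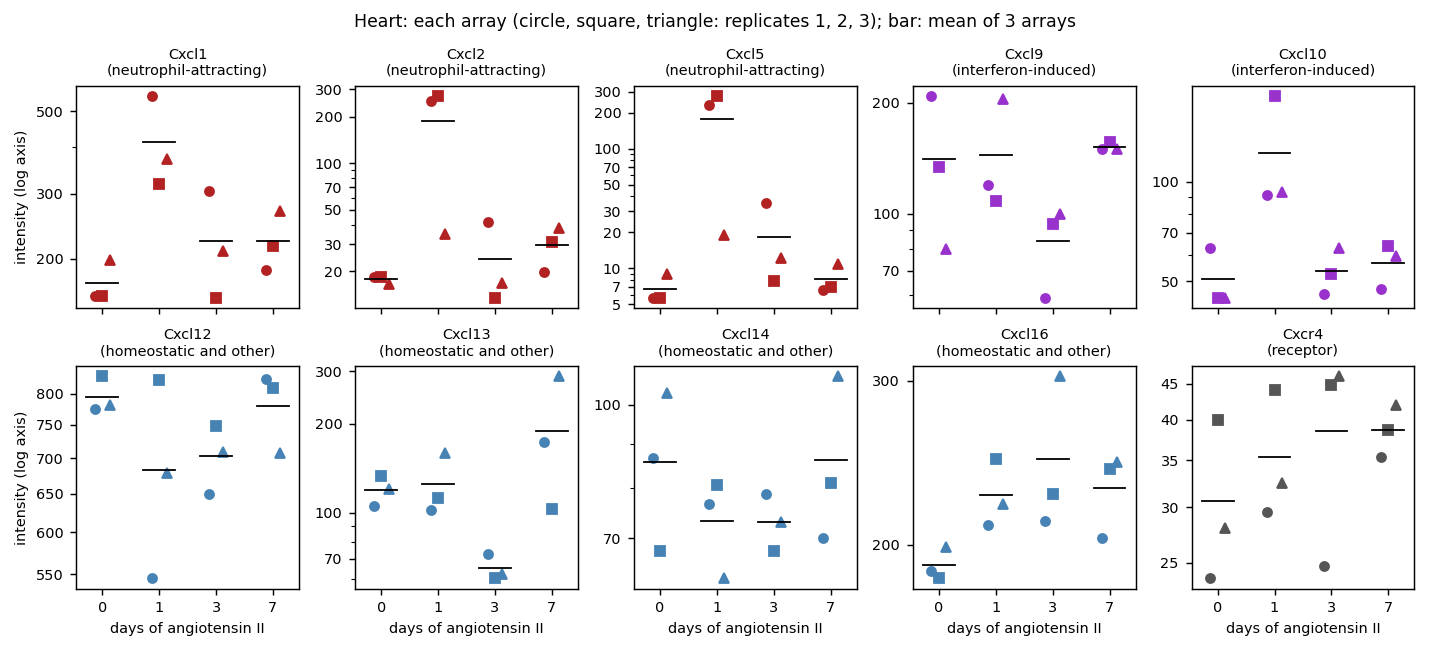
Intensity (log axis) of each gene's representative probe set in the 12 hearts against days of angiotensin II; symbols are replicates 1, 2 and 3 and bars the mean of 3 arrays. Cxcl1, Cxcl2, Cxcl5 and Cxcl10 have their 3 day 1 hearts above all day 0 hearts, and replicate 3 of day 1 is the lowest for Cxcl2 and Cxcl5.

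The probe sets of Cxcl1 gave the same direction but different sizes. The representative set, 1441855_x_at, had the smallest difference at day 1. Set 1457644_s_at was 172, 122 and 185 at day 0 and 1129, 1585 and 452 at day 1, a difference of 2.46 ± 0.42 (limma over probe sets, adjusted p = 0.0043). Set 1419209_at was 48, 55 and 90.8 at day 0 and 1149, 1351 and 303 at day 1, a difference of 3.34 ± 0.53 (adjusted p = 0.0034). In both of these sets, too, replicate 3 was the lowest of the day 1 hearts, whereas in the representative set replicate 2 was. The suffix _x_at marks sets whose probes may also bind other transcripts, and _s_at those that match several transcripts.

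The promoters of the called genes are shown with that of Cxcl9, the interferon-induced chemokine that was not called, because these genes are textbook targets of NF-κB and of interferon-activated factors. The sequences are RefSeq's for GRCm38.p6, the 200 bases before each gene's start, written 5′ to 3′ on the gene's strand. Capitals mark matches to the NF-κB consensus on either strand and, in Cxcl9, to the interferon-response motif given after the sequences. RefSeq's promoter table held 8 of the 10 genes, not Cxcl5 and Cxcl16.
Cxcl1 promoter, chr5:90891045-90891244, plus strand: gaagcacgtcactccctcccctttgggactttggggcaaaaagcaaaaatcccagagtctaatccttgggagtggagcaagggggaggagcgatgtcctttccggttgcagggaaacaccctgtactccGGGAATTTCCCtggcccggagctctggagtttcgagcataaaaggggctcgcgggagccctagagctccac
Cxcl2 promoter, chr5:90903699-90903898, plus strand: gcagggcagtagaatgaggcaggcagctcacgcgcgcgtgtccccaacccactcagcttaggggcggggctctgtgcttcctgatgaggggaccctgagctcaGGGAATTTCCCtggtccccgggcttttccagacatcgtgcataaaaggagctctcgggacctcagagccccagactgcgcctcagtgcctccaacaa
Cxcl10 promoter, chr5:92348890-92349089, minus strand: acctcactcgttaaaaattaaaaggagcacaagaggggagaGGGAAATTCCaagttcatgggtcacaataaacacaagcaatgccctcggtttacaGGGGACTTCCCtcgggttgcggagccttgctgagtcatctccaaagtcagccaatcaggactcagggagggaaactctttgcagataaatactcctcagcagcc
Cxcl9 promoter, chr5:92328080-92328279, minus strand: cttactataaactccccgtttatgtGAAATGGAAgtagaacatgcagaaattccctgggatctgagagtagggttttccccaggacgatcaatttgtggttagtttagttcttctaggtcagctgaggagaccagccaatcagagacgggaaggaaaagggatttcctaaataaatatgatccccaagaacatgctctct

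In windows of 300 bases, from 250 before to 50 after the start, the NF-κB consensus occurred on either strand in 8.46% of 32851 mouse promoters. In Cxcl1 it matched on both strands of a single run, at -71 to -62 and -70 to -61. The same run of letters, GGGAATTTCCC, lay in Cxcl2, with matches at -97 to -88 and -96 to -87. Cxcl10 held a match at -159 to -150 and 3 overlapping matches between -104 and -94. The interferon-response motif searched was GAAANNGAA, on either strand, which was in 8.56% of promoters. It occurred at -175 to -167 of Cxcl9, at -172 to -164 of Cxcl14 and, upstream of the bases shown, at -213 to -205 of Cxcl10. The windows of Cxcl12, Cxcl13 and Cxcr4 held neither. These are matches of letters, not measured binding.

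Of the interferon-induced pair, Cxcl10 rose in heart at day 1 and Cxcl9 did not pass. Cxcl10 was 62.9, 44.6 and 44.5 at day 0 and 91.1, 182 and 92.9 at day 1. At day 3 it was 45.9, 52.7 and 63, and at day 7 47.4, 63.8 and 59.6. Every day 1 heart lay above every other heart of the time course. The difference was 1.0 ± 0.21 (2.00-fold, limma adjusted p = 0.011); it passed in each of the 12 fits that left out 1 heart array, between 0.71 without day 1 replicate 2, the highest, and 1.15.

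Cxcl9 was 209, 134 and 80.3 at day 0, 119.7, 108 and 205 at day 1, 59, 93.9 and 99.8 at day 3 and 150.1, 156 and 150.0 at day 7. The groups of days 0 and 1 overlapped, and the difference was 0.06 ± 0.28 (95% interval -0.54 to 0.67, adjusted p = 0.92). At day 3 it was -0.59 ± 0.28 (adjusted p = 0.43). The hearts with the highest Cxcl9 on days 0 and 1, replicate 1 and replicate 3, were also those with the highest interferon response list of their groups. At day 7 the sum of that list ran from 5204 to 14258, with Cxcl9 at 150.1, 156 and 150.0. A link between the list and Cxcl9 was not tested. None of 14 tested interferon response genes was called higher at day 1 and 1 was called lower, Cmpk2, a mitochondrial nucleotide kinase (-1.0 ± 0.22, adjusted p = 0.012).

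Cxcl12, Cxcl13, Cxcl14, Cxcl16 and Cxcr4 were not called at day 1 in heart, although for Cxcl12 the probe sets disagreed. The representative set of Cxcl12, 1417574_at, was 776, 829.8 and 782 at day 0 and 545, 823 and 679 at day 1, with a difference of -0.24 ± 0.13, adjusted p = 0.26. Set 1448823_at was 207, 212 and 282 at day 0 and 387, 474 and 278 at day 1, and it rose by 0.65 ± 0.20 (limma over probe sets, adjusted p = 0.049). Its day 1 and day 0 hearts overlapped at replicate 3. The third set, 1439084_at, stayed between 14.1 and 22.4 on all heart arrays. The representative set was 649.7, 749 and 709 at day 3 and 825, 809.9 and 707 at day 7, with differences of -0.18 ± 0.13 and -0.03 ± 0.13. Set 1448823_at ranged from 257 to 409 at day 3 and from 262 to 335 at day 7, and both ranges overlapped that of day 0. Which transcripts of Cxcl12 each set reads was not examined.

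Cxcl16, the scavenger receptor and ligand of Cxcr6, was 188, 184 and 199 at day 0, 210.0, 247 and 221 at day 1, 212, 227 and 303 at day 3 and 203, 241 and 246 at day 7. All hearts of each treated day lay above all of day 0, where 11.4%, 7.4% and 9.28% of all genes did so at days 1, 3 and 7. The differences were small, 0.23 ± 0.13, 0.34 ± 0.13 and 0.25 ± 0.13, and none passed (limma adjusted p = 0.26, 0.31 and 0.6). With Cxcl1, Cxcl2, Cxcl5 and Cxcl10 it made 5 of 10 genes whose day 1 hearts were all above day 0. Cxcl2 and Cxcl5 were tested only because treated hearts were high, so this count is a description and cannot be read against the 11.4%.

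Cxcl14 was 86.7, 67.6 and 103 at day 0 and 76.6, 80.6 and 62.8 at day 1, and Cxcr4, the receptor of Cxcl12 on most white blood cells and on endothelium, 23.7, 40.0 and 28 and 29.5, 44.1 and 32.4. Both overlapped between the days, with differences of -0.18 ± 0.15 and 0.14 ± 0.17. The 95% intervals at day 1, -0.51 to 0.15 and -0.23 to 0.52, did not reach the difference of Cxcl2. At day 3 Cxcl14 differed by -0.18 ± 0.15 and Cxcr4 by 0.22 ± 0.17, and at day 7 by 0.01 ± 0.15 and 0.24 ± 0.17, with day 7 intensities of 70.1, 81.2 and 108 for Cxcl14 and 35.4, 38.7 and 42 for Cxcr4.

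Cxcl13 followed another course. It was 105, 133 and 121 at day 0 and 103, 112 and 159.7 at day 1. At day 3 it was 72.5, 60.1 and 62.4, and at day 7 174, 103 and 289. All day 3 hearts lay below all others of the time course. The second set, 1417851_at, had the same shape, 78.3, 107 and 82.4 at day 0, 17, 35.4 and 41.3 at day 3 and 116, 87 and 378 at day 7. The day 3 minus day 0 difference was -0.74 ± 0.26, which did not pass (limma adjusted p = 0.29), and day 7 was above day 3 by 1.24 ± 0.26 (unadjusted p = 0.00035, adjusted p = 0.61 over all genes, of which none was called). At day 3, by their representative sets, Cxcl12 and Cxcl13 were the genes of the 10 with all hearts below day 0, where 10.4% of all genes were. Set 1448823_at of Cxcl12 went the other way, with a mean of 319 at day 3 against 234 at day 0. Over all 3 treated days, Cxcl13 was called by the F test (adjusted p = 0.048), and it did not pass in 9 of the 12 fits that left out 1 heart array.

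After day 1, no gene of the 10 was called against day 0. At days 3 and 7 limma called 0.0855% and 0.0499% of all genes, and 2 and 0 of the 10 had an unadjusted p under 0.05, against 12% and 8.88% of all genes. Day 3 replicate 1 was still the highest of its group for Cxcl1, Cxcl2 and Cxcl5. Between days 1 and 3, Cxcl2 (-2.04 ± 0.50, adjusted p = 0.041) and Cxcl10 (-0.93 ± 0.21, adjusted p = 0.029) fell, where 1.47% of all genes were called lower. For Cxcl2 the day 1 and day 3 hearts overlapped, and the call was lost in 10 of the 12 fits that left out 1 heart array. Against day 1, Cxcl5 and Cxcl10 were lower at day 7 (-2.51 ± 0.59, adjusted p = 0.033, and -0.87 ± 0.21, adjusted p = 0.035; background 2.12%). Cxcl1 lay near the threshold in both, at -0.85 ± 0.23, adjusted p = 0.054, and -0.82 ± 0.23, adjusted p = 0.057. Because Cxcl2 and Cxcl5 were tested only through treated hearts, where they were high, their falls from day 1 are descriptions. The counts of genes called lower than at day 1 cannot be read against those shares. Between days 7 and 3 none was called, and 0% of all genes were. An unadjusted p under 0.05 was found for 2 of the 10, against 7% of all genes. The calls between treated days were weak: with 1 heart array left out, the count ranged from 0 to 4 in both comparisons with day 1. Without day 1 replicate 3 it was 4 in both.

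The F test over the 3 treated days called 5 of 10, Cxcl1 (adjusted p = 0.034), Cxcl2 (0.042), Cxcl5 (0.041), Cxcl10 (0.03) and Cxcl13, against 6.55% of all genes. Cxcl2 and Cxcl5 were tested only because treated hearts were high, so the count cannot be read against that share. Leaving out 1 heart array gave between 0 and 5. Among the other genes of the pathway it called Mmp8, Zfp36, Il6 and Tnfaip3. Their lists held more genes above the filter level at day 1 than at day 0, so these calls are descriptions.

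Inducers of these chemokines and early NF-κB response genes were counted as a list. It had 9 genes above the filter level in each day 0 heart and 10 in each day 1 heart. Its count is therefore a description and cannot be read against the share of all genes. Where 4.86% of all genes were called higher and 8.57% lower at day 1, 4 of 10 tested rose and none fell, with a median of 0.36. They were Il6, a cytokine of acute inflammation (3.01 ± 0.56, adjusted p = 0.0068), Il1b, the interleukin that switches on neutrophil-attracting chemokines (1.54 ± 0.40, adjusted p = 0.027), Zfp36, which promotes the decay of cytokine mRNA (0.94 ± 0.16, adjusted p = 0.0041), and Nfkbiz, a nuclear partner of NF-κB (0.76 ± 0.22, adjusted p = 0.039). Irf1, an interferon-induced transcription factor, differed by 0.07 ± 0.13 (adjusted p = 0.79). Of 5 proteases that cut or shed CXC chemokines, 1 rose, the neutrophil collagenase Mmp8 (1.20 ± 0.23, adjusted p = 0.0073). All 5 were above the filter level in each day 1 heart but only 4 in each heart of the other days, so this count is a description too.

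None of 4 tested other CXC ligands was called at day 1, the smallest p being those of the platelet genes Pf4 (0.60 ± 0.28, adjusted p = 0.18) and Ppbp (0.62 ± 1.04, adjusted p = 0.77). Cxcl3, the close relative of Cxcl2, did not pass the filter on low values and was picked here after its values were seen. It ranged from 4.64 to 5.44 at day 0 and from 9.47 to 213 at day 1. None of 4 tested receptors was called, with Cxcr3 at 0.26 ± 0.11, adjusted p = 0.14, and Cxcr2 at 0.38 ± 0.20, adjusted p = 0.25.

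Markers of the cells these chemokines attract moved in the same hearts. In each day 0 heart, 9 neutrophil, 11 monocyte and macrophage and 6 T and NK cell genes were above the filter level, fewer than were tested. The counts of these lists are therefore descriptions. They cannot be read against the 4.86% of all genes called higher at day 1. At day 1, 5 of 10 neutrophil genes rose, among them S100a8 (3.40 ± 0.80, adjusted p = 0.017) and S100a9 (3.17 ± 0.87, adjusted p = 0.033), calcium-binding proteins abundant in neutrophils. Of 12 monocyte and macrophage genes 4 rose, including Ccr2 (2.18 ± 0.60, adjusted p = 0.033), and of 7 T and NK cell genes 2 rose, Gzmb (1.72 ± 0.27, adjusted p = 0.0036) and Cd3d (0.76 ± 0.20, adjusted p = 0.028). The sum of the 9 T and NK cell genes on the array was 335, 395 and 392 at day 0 and 873, 472 and 596 at day 1. Their part in the chemokine values was not tested.

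At day 3 and day 7 none of the 4 pathway lists had a called gene against day 0. The smallest p at day 3 were those of Il6 (1.76 ± 0.56, adjusted p = 0.25), Zfp36 (0.38 ± 0.16, adjusted p = 0.35), Pf4 (0.42 ± 0.28, adjusted p = 0.6), Ppbp (-0.99 ± 1.04, adjusted p = 0.77), Cxcr3 (0.10 ± 0.11, adjusted p = 0.79), Ackr3 (-0.10 ± 0.14, adjusted p = 0.84), Dpp4 (-0.26 ± 0.17, adjusted p = 0.61) and Mmp8 (0.16 ± 0.23, adjusted p = 0.84). At day 7 they were those of Nfkbiz (0.78 ± 0.22, adjusted p = 0.4), Nfkbia (0.38 ± 0.15, adjusted p = 0.5), Ppbp (-1.04 ± 1.04, adjusted p = 0.81), Cxcl17 (-0.07 ± 0.20, adjusted p = 0.96), Ackr3 (0.35 ± 0.14, adjusted p = 0.5), Cxcr3 (0.11 ± 0.11, adjusted p = 0.81), Adam10 (0.25 ± 0.15, adjusted p = 0.66) and Dpp4 (-0.22 ± 0.17, adjusted p = 0.75).

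Some pathway genes fell after day 1, where 1.47% and 2.12% of all genes were called lower at days 3 and 7. Each day 1 heart had 5 proteases and 10 inducers above the filter level, against 4 and 9 in each day 0 and day 7 heart. The falls in these lists are therefore descriptions and cannot be read against those shares. Between days 1 and 3, 1 of 5 proteases, Mmp8 (-1.04 ± 0.23, adjusted p = 0.028), and 1 of 10 inducers and NF-κB response genes, Tnfaip3, an inhibitor of NF-κB signalling (-0.55 ± 0.12, adjusted p = 0.027), fell. Between days 1 and 7, Mmp8 (-1.06 ± 0.23, adjusted p = 0.026), Il6 (-2.54 ± 0.56, adjusted p = 0.029) and Zfp36 (-0.76 ± 0.16, adjusted p = 0.022) were lower, while Ackr3, the scavenging receptor that removes Cxcl12, was higher (0.55 ± 0.14, adjusted p = 0.04).

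In kidney none of the 8 tested genes was called at day 1, 3 or 7, where limma called 0.5%, 0% and 0% of all 14214 genes. With an unadjusted p under 0.05 there were 2, 1 and 1 of the 8, against 16.3%, 8.46% and 6.68% of all genes. Cxcl2 and Cxcl5 lay under the filter level on all 8 kidney arrays, at 10.9 to 14.1 and 4.5 to 7.3, below the value of 16 added before the log, and they were not tested there.

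Cxcl13 was the kidney gene with the largest differences. It was 71.4 and 77 at day 0 and 123 and 298 at day 1. At day 3 it was 136 and 157, and at day 7 219 and 229.8. All 6 treated kidneys lay above both day 0 kidneys. Of all genes, 26.2%, 20.4% and 21.2% had both treated kidneys above both of day 0 at days 1, 3 and 7. The differences were 1.21 ± 0.32, 0.85 ± 0.32 and 1.41 ± 0.32 at days 1, 3 and 7, with limma adjusted p = 0.15, 0.57 and 0.69 (n = 2 against 2), so none passed. The second set, 1417851_at, gave 2.0 ± 0.45, 1.25 ± 0.45 and 2.15 ± 0.45. Without day 1 replicate 1 Cxcl13 passed at day 1 (1.80, adjusted p = 0.001; the range over the 8 arrays left out was 0.001 to 0.35). The adipocyte list stood at 2.55 and 3.03 at day 1, 0.08 and 4.29 at day 3 and -0.10 and 0.44 at day 7 relative to day 0. The part of adipocyte RNA in the Cxcl13 values was not tested on any day.

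Kidney Cxcl1 was 144 and 136 at day 0 and 200.4 and 182 at day 1, both day 1 kidneys above day 0, with a difference of 0.41 ± 0.11, adjusted p = 0.15. Its set 1419209_at went from 23.7 and 25.2 to 92.7 and 52.7, 1.10 ± 0.20 (adjusted p = 0.07). Cxcl10 spread widely within the treated groups, 169 and 84.8 at day 1 and 107 and 203 at day 7 against 109 and 125 at day 0. Both day 3 kidneys, 66 and 64, were lower (-0.71 ± 0.33, adjusted p = 0.61). Cxcl9 also varied between replicates, with 15.2 and 169 at day 3, and its 95% interval at that day ran from -1.51 to 2.21. The higher of these kidneys, replicate 2, was that with the adipocyte sum of 21992, and it also had an adrenal cortex sum of 3565. The part of either tissue in the Cxcl9 values was not tested.

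For Cxcl12 in kidney, set 1448823_at was 1023 and 1318 at day 0 and 721 and 743 at day 1 (-0.66 ± 0.15, adjusted p = 0.11), opposite in sign to its difference in heart, while the representative set gave -0.22 ± 0.15, adjusted p = 0.52. Cxcl14, Cxcl16 and Cxcr4 differed from day 0 by between -0.33 and 0.14 over the 3 days. None of the pathway genes was called in kidney. At day 1 the smallest p were those of Nfkbia (0.77 ± 0.19, adjusted p = 0.13) and Zfp36 (0.79 ± 0.26, adjusted p = 0.21) among inducers and of Ackr3 (-0.63 ± 0.14, adjusted p = 0.11) and Cxcr3 (-0.28 ± 0.10, adjusted p = 0.25) among receptors. Among ligands and proteases they were those of Cxcl17 (-0.22 ± 0.09, adjusted p = 0.3), Cxcl11 (-0.16 ± 0.09, adjusted p = 0.45), Mmp8 (0.29 ± 0.14, adjusted p = 0.37) and Mmp9 (-0.16 ± 0.12, adjusted p = 0.53).

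**Figure D2:**
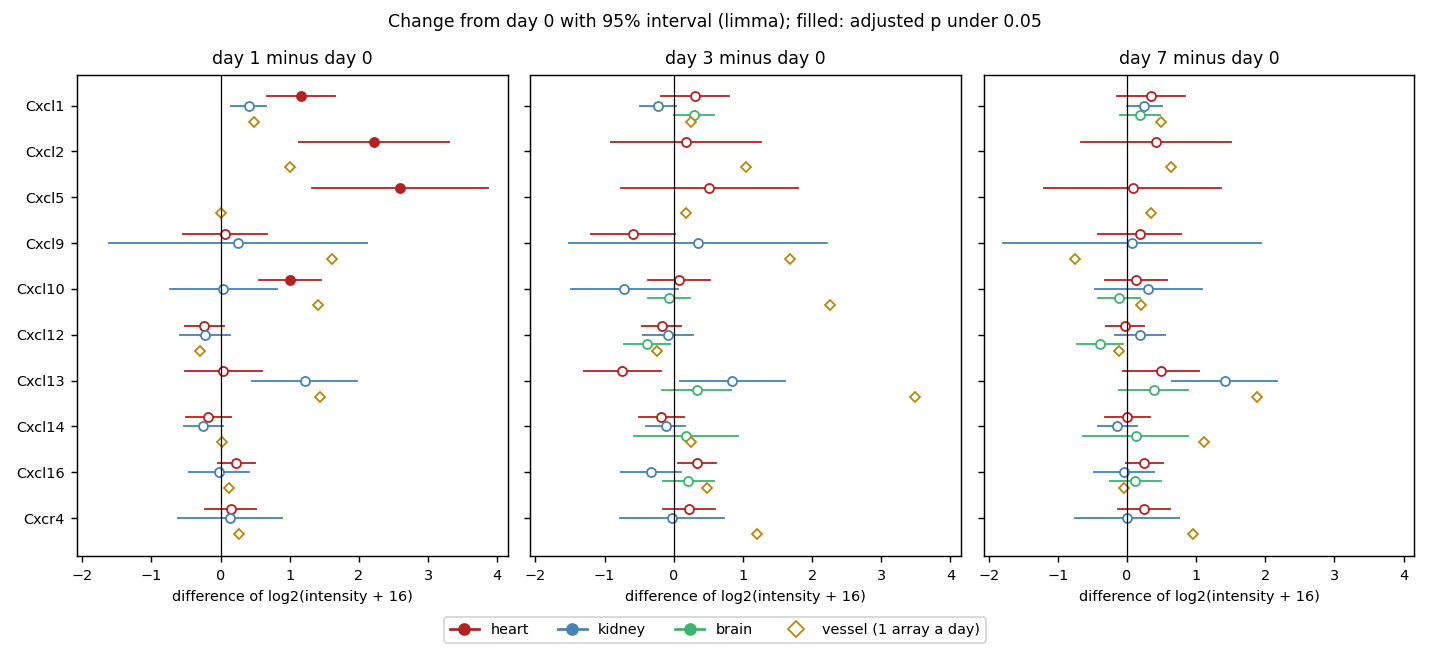
Difference from day 0 in log2(intensity + 16) for each gene at days 1, 3 and 7 in heart, kidney, brain and vessel; circles are limma estimates with 95% intervals, filled where the adjusted p was under 0.05, and diamonds are single vessel arrays. Filled circles appear for Cxcl1, Cxcl2, Cxcl5 and Cxcl10 in heart at day 1, and the farthest diamond is Cxcl13 in vessel at day 3.

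In brain, sampled at days 0, 3 and 7, none of 6 tested genes was called, and limma called 0% of all 14109 genes at either time. At day 3, 2 of the 6 had an unadjusted p under 0.05 and at day 7 1, against 7.38% and 7.13% of all genes. Cxcl12, which in brain guides migrating neurons, was 211 and 247 at day 0, 177 and 165 at day 3 and 161 and 179.9 at day 7, lower on all treated arrays, as 21.4% and 24% of all genes were at days 3 and 7 (-0.39 ± 0.13 and -0.39 ± 0.13, adjusted p = 0.66 and 0.67). Its set 1448823_at overlapped between days, 200.3 and 368 at day 0 against 266 and 247 at day 3. The day 0 brains differed from each other, with neutrophil list sums of 1049 and 9416, and its part in these differences was not tested. Cxcl1 was 82.7 and 91.6 at day 0, 117 and 104 at day 3 and 102 and 102 at day 7, above day 0 on all treated arrays, as 15.4% and 16.3% of all genes were (0.29 ± 0.11 and 0.19 ± 0.11, adjusted p = 0.66 and 0.67). Cxcl13 differed by 0.33 ± 0.20 and 0.38 ± 0.20, Cxcl10 by -0.07 ± 0.12 and -0.11 ± 0.12, Cxcl14 by 0.18 ± 0.30 and 0.12 ± 0.30 and Cxcl16 by 0.21 ± 0.15 and 0.12 ± 0.15. Cxcl2, Cxcl5, Cxcl9 and Cxcr4 were under the filter level on 5 or more of the 6 arrays, and no pathway gene was called in brain.

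The vessel arrays, 1 a day, allowed no test. There the largest difference among the 9 tested genes was that of Cxcl13, and the interferon-induced pair was also higher on days 1 and 3. At day 1, 4 of 9 genes were at least 2-fold higher than on the day 0 array, at day 3, 5, and at day 7, 2, where 0.651%, 4.78% and 4.13% of all 14295 genes were. None of the 9 was 2-fold lower. The 4 at day 1 were Cxcl2, which lay on the threshold, Cxcl9, Cxcl10 and Cxcl13, Cxcr4 joined them at day 3, and Cxcl13 and Cxcl14 made up the count at day 7. Cxcl2 and Cxcr4 were under the filter level on the day 0 array and passed only through treated arrays. The counts of days 1 and 3 are therefore descriptions and cannot be read against those shares.

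Vessel Cxcl13 was 239 at day 0, 673 at day 1, 2842 at day 3 and 924 at day 7. The day 3 difference was 3.49, or 11.2-fold. Set 1417851_at went from 217 to 4324 at day 3. Cr2, Fcer2a, Madcam1 and Glycam1 made up a list of 4 lymph node and follicular stroma genes. None of them was above the filter level at day 3, nor at days 0 and 7. The 6 B cell genes did not move together. At day 3 Jchain, a gene of antibody-secreting cells, differed from day 0 by 1.94, Ms4a1 by 0.82 and Cd79b by 0.55, while Cd79a, Pax5 and Blk differed by -0.01, -0.11 and -0.20. The part of lymphoid tissue in the Cxcl13 values was not tested.

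Cxcl9 was 184, 594, 629 and 103 at days 0, 1, 3 and 7, and Cxcl10 41.2, 136, 257 and 49.6. Both were highest at day 3, and at day 7 Cxcl9 was below its day 0 value and Cxcl10 was 0.20 above its own. The interferon response list stood 1.14 above day 0 at day 1, 1.87 at day 3 and 0.46 at day 7, and the macrophage list 0.61, 2.14 and 1.31. Heart muscle genes of the vessel arrays stood at -0.85, -2.96 and -0.08, so the day 3 array also held the least heart muscle RNA. It held neural RNA as well, with a sum of 6 brain genes of 1933 against 215 at day 0 and Snap25, a synaptic gene, 4.89 higher. The sum of 7 fibroblast genes was 24351 at day 0 and 48842 at day 3. The part of these shifts in the chemokine values was not tested.

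Of the neutrophil-attracting genes, Cxcl2 and Cxcl5 were dim in vessel, while Cxcl1 differed by probe set. Cxcl2 was 9.84, 35.7, 37.5 and 24.3, and Cxcl5 stayed under the filter level at 5.39 to 11.2. For Cxcl1 the representative set differed by 0.48 at day 1, but set 1419209_at went from 14.4 to 199.9, a difference of 2.83, and remained at 113 and 139 at days 3 and 7.

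Cxcr4 was 21.1, 28.6, 69.1 and 56.1 in vessel at days 0, 1, 3 and 7. Its ligand Cxcl12 gave opposite readings, with the representative set at 623 and 522 at days 0 and 3 and set 1448823_at at 414 and 1585. Cxcl14 reached 136 at day 7 from 54.2, and its second set, 1418457_at, 199.9 from 36.1. Cxcl16 ranged from 116 to 173. Among inducers, Il6 was 0.95, 1.82 and 2.74 above day 0 at days 1, 3 and 7, and Irf1 0.61, 0.62 and -0.10.

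**Figure D3:**
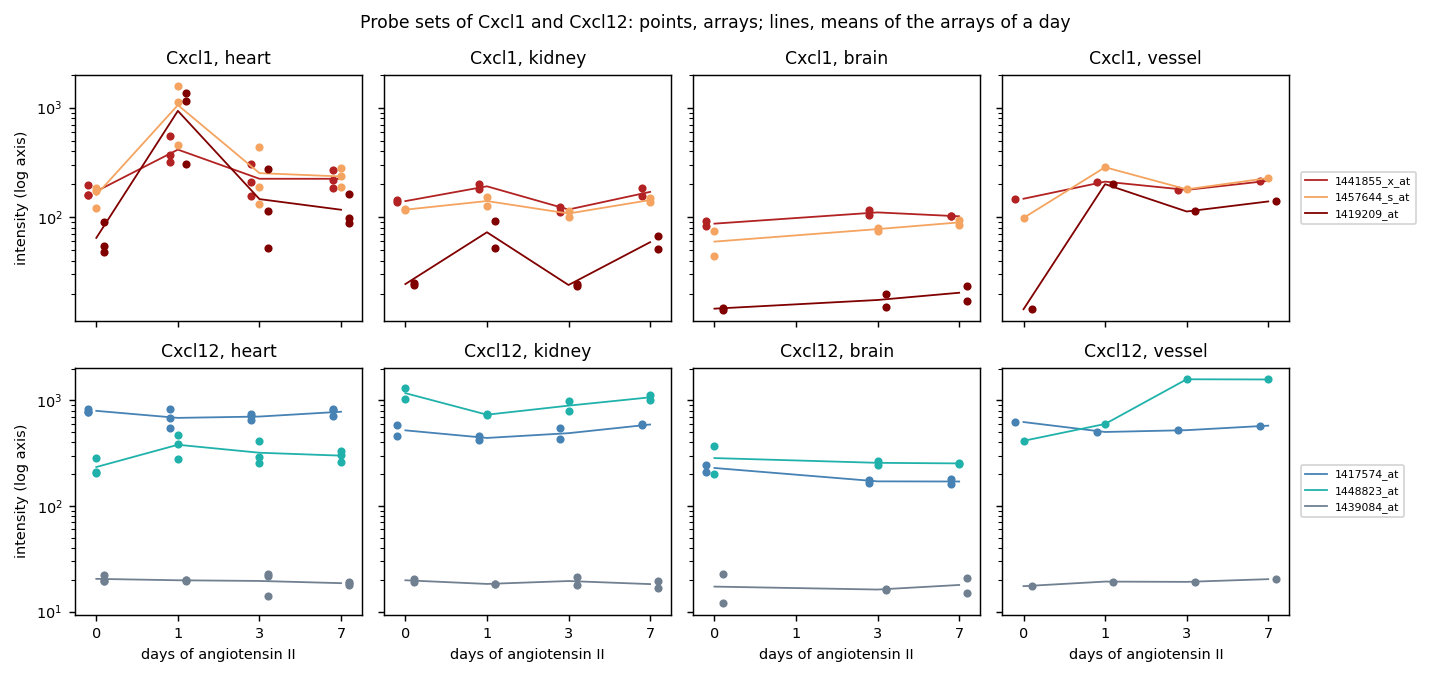
Intensity (log axis) of the probe sets of Cxcl1 (upper row) and Cxcl12 (lower row) in heart, kidney, brain and vessel against days of angiotensin II; points are arrays and lines the means of a day. Set 1419209_at of Cxcl1 spans the widest range in heart and vessel, and in vessel 1448823_at of Cxcl12 goes from 414 to 1578 while 1417574_at does not.

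**Figure D4:**
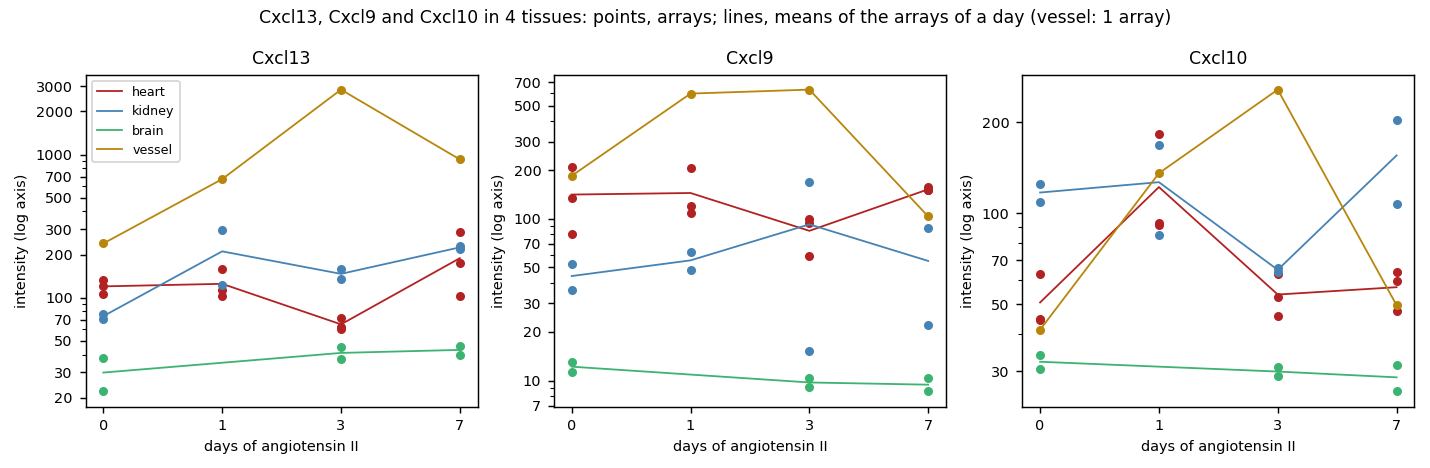
Intensity (log axis) of Cxcl13, Cxcl9 and Cxcl10 in 4 tissues against days of angiotensin II; points are arrays and lines the means of a day. Vessel Cxcl13 peaks at 2842 at day 3, where the 3 hearts are at their lowest, 72.5, 60.1 and 62.4.

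Before treatment the tissues differed in their chemokine levels. Differences between tissues come from a joint fit of the heart, kidney and brain arrays, with a spread shared by all tissues; in simulated data whose spread differed between tissues, this fit called too many genes against brain, and weighting the tissues lessened but did not remove it, so calls against brain may be too many. Of the 10 genes 4 differed between heart and kidney, while 55.7% of all genes did, so the share is below that of all genes. Cxcl9 (1.31 ± 0.51, adjusted p = 0.036) and Cxcl12 (0.61 ± 0.14, adjusted p = 0.0013) were higher in heart, and Cxcl10 (-1.01 ± 0.26, adjusted p = 0.003) and Cxcl16 (-0.67 ± 0.16, adjusted p = 0.0012) were lower. For Cxcl12 the sign depended on the probe set: 1448823_at, at 1023 and 1318 in kidney and 207, 212 and 282 in heart, gave -2.25. The call of Cxcl9 was lost without day 0 replicate 1 or 2 of either tissue (adjusted p up to 0.18).

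Heart against brain separated 6 of 10 genes, where 72.9% of all genes differed. Cxcl9 (2.40 ± 0.51), Cxcl12 (1.73 ± 0.14), Cxcl13 (1.58 ± 0.31), Cxcl16 (1.39 ± 0.16) and Cxcl1 (0.86 ± 0.21) were higher in heart, and Cxcl14 was higher in brain (-1.32 ± 0.20, heart minus brain). For Cxcl12 this held for the representative set only. Set 1448823_at overlapped, at 207 to 282 in heart and 200 to 368 in brain, and gave -0.22. Kidney against brain also separated 6 genes, of 8 tested (background 66%), with Cxcl14 again higher in brain (-1.36 ± 0.22) and Cxcl16 (2.06 ± 0.17), Cxcl10 (1.46 ± 0.29), Cxcl12 (1.12 ± 0.16), Cxcl13 (0.99 ± 0.34) and Cxcl1 (0.60 ± 0.24) higher in kidney. Brain Cxcl14 was 169 and 328 at day 0, all above the hearts at 86.7, 67.6 and 103 and the kidneys at 80.7 and 84.1.

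In order of day 0 level, Cxcl16 ran from kidney over heart to brain, with all 3 steps called. Cxcl12 by its representative set ran from heart over kidney to brain, also with all steps called. For Cxcl10 kidney stood above heart and brain, which were not told apart (0.46 ± 0.26, adjusted p = 0.13). For Cxcl1 and Cxcl13, heart and kidney were not told apart (0.26 ± 0.21, adjusted p = 0.32, and 0.59 ± 0.31, adjusted p = 0.11) and both were called above brain. The kidney call of Cxcl1 against brain was lost without any 1 of the 4 day 0 arrays (adjusted p up to 0.12) and under 4 of 10 alternatives (up to 0.17). That of Cxcl13 was lost without brain replicate 1 or kidney replicate 2 of day 0 (up to 0.12) and with 64 added (0.072). For Cxcl9, kidney and brain were not told apart (1.08 ± 0.56, adjusted p = 0.098) and heart stood above both. For Cxcl14, brain stood above heart and kidney, and the order of those depended on the probe set. The representative set did not tell them apart (0.03 ± 0.20, adjusted p = 0.9), while 1418457_at, at 100.5, 78.8 and 139.6 in heart and 41.3 and 45.5 in kidney, was higher in heart by 1.01 (adjusted p = 0.0083). Quantile normalization of the arrays gave 1.09. Cxcl2, Cxcl5 and Cxcr4 gave no called step; their intensities were near or under the filter level at day 0 in every tissue. The single day 0 vessel array gave 239 for Cxcl13 and 184 for Cxcl9, with no spread to set against the other tissues.

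The change from day 0 was then compared between tissues. At day 1 the heart minus kidney difference of responses was 2.54 ± 0.77 for Cxcl5 (limma adjusted p = 0.073), 2.14 ± 0.67 for Cxcl2 (0.079), 0.96 ± 0.37 for Cxcl10 (0.16), 0.75 ± 0.30 for Cxcl1 (0.18) and -1.18 ± 0.43 for Cxcl13 (0.14). All 5 had an unadjusted p under 0.05, as 18.5% of all genes did. None passed after adjustment, where 3.47% of all genes passed. Cxcl2 and Cxcl5 lay under the filter level on all kidney arrays and entered this fit only through treated hearts, so their differences are descriptions. Without heart day 1 replicate 3, Cxcl2 (2.96) and Cxcl5 (3.53) passed, and with a variance factor for each tissue both passed too (adjusted p = 0.033 and 0.03; the highest under any alternative that kept all arrays was 0.11 for both). Of 10 tested inducers 1 passed, Il6 (3.04 ± 0.73, adjusted p = 0.029), and none of the other pathway lists held a called gene. The inducer list had 9 genes above the filter level in each day 0 heart and 10 in each day 1 heart, so this call is a description too.

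At day 3 and day 7 no gene of the 10 was called in any of the 6 comparisons of responses between heart, kidney and brain, where limma called 0.0544% and 0.0272% of all genes at days 3 and 7 for heart against kidney, 0.722% and 0.334% for heart against brain, and 0.326% and 0.226% for kidney against brain. With an unadjusted p under 0.05 there were 3 at day 3 and 1 at day 7 for heart against kidney, 1 and 0 for heart against brain, and 1 and 2 for kidney against brain. The shares above are for adjusted p, and the shares of all genes under the unadjusted threshold are not given here. These unadjusted counts are therefore descriptions. No pathway gene was called in these 6 either.

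Across the 12 heart arrays Cxcl2 and Cxcl5 were most like each other, with a Pearson correlation of 0.976 on the log2 scale. The 2 most correlated genes were, for Cxcl1, Psmc2 (0.928) and Cd3d (0.927), for Cxcl2, besides Cxcl5, Cd300lf (0.973), and for Cxcl5, besides Cxcl2, Gm13889 (0.970). For Cxcl10 they were Pilrb1 (0.980) and Ddx56 (0.955), and for Cxcl9 Gbp7 (0.909) and Parp12 (0.908). Cxcl13 was most like Cd36 (0.934) and Fam126b (0.898), Cxcl12 like Letmd1 (0.936) and Ccdc85b (0.883), and Cxcl16 like G530011O06Rik (0.911) and Mfsd1 (0.905). Cxcl14 was most like Fancd2 (0.831) and Cfb (0.815), and Cxcr4 like Tmem222 (0.894) and Tbx18 (0.883). These are the highest of 14039 correlations over few arrays that share day groups, so they are descriptions.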

How the data were processed

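RNA was hybridised to the Affymetrix Mouse Genome 430 2.0 array. The authors deposited 1 linear intensity per probe set and array. Per the submitters' processing notes, these came from Expression Console, with algorithm and settings not given in the sources used here. Array medians were 35.2 to 37.8, and no further normalization was applied. Probe sets with a single symbol were used. Tissues were fitted by group means in limma 3.58.1 (R 4.3.3), and tissues were compared by fitting 26 arrays with 11 group means together, each on log2(intensity + 16). Code was tested on simulated data. Figures used Python 3.11.15, pandas 2.3.3, numpy 2.4.6 and matplotlib 3.10.9. The data.table package (1.17.8) read the files.

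The 10 genes, the lists and the tests were chosen with earlier results of these data known. The text names the 10 genes, called genes of the pathway lists (or the 2 with the smallest p, for heart and for kidney at day 1), up to 3 marker genes a list and the 2 most correlated genes. Alternatives were no filter, renormalization, other added values, probe set rules, variance models, sample choices, a replicate block and each array left out. Choosing the probe set by linear mean and weighting tissues in the joint fit were added after seeing the data. Replicate spread, with few arrays a group, limits the precision.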

Additional observations from a re-analysis of the deposited data

Results flagged for a closer look

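For 3 genes, by their representative sets, all arrays of a tissue at day 3 lay above day 0 while all those of another lay below it. The share of all genes that did so is not given here, so the count is a description. Within a tissue at day 3, 7.4% of all genes lay above and 10.4% below in heart, 20.4% above in kidney and 15.4% above in brain. The difference between tissues was tested in limma's joint fit, and none passed. Cxcl13 was lower in heart and higher in kidney, a difference of responses of -1.59 ± 0.43 (adjusted p = 0.26). Cxcl16 was higher in heart and lower in kidney, 0.67 ± 0.22 (0.34), and lower in kidney and higher in brain, -0.54 ± 0.24 (0.39). Cxcl1 was lower in kidney and higher in brain, -0.52 ± 0.33 (0.59). The other probe sets did not all follow. Set 1457644_s_at of Cxcl1 and set 1417851_at of Cxcl13 kept both directions. Set 1419209_at of Cxcl1 overlapped in kidney, at 23.6 to 24.3 at day 3 against 23.7 to 25.2 at day 0. Set 1449195_s_at of Cxcl16 was lower in kidney but overlapped in heart, at 73.3 to 199.7 against 81.7 to 97.9. In brain, 1419209_at and 1449195_s_at were under the filter level on all arrays.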

How the results depend on the processing

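With few arrays, calls near the threshold moved with the processing. Cxcl1 and Cxcl10 kept their direction and their call in heart at day 1 under all 10 alternatives and all 12 arrays left out. Cxcl2 and Cxcl5 were lost when only days 0 and 1 were fitted, where the count of called genes fell from 4 to 2, and with 4 of the arrays left out (range of counts 2 to 4). Fitting only days 0 and 3 called 1 gene, Cxcl13. For day 3 against day 1 the count of 2 became 1 without the filter, with 64 added, with trended variance and with a replicate block, 0 with only these days and 4 in the joint fit. For day 7 against day 1 it became 0 without the filter or with only these days, 1 with 64 added, trended variance or the replicate block, and 4 in the joint fit. The F test's 5 became 0 without the filter, 2 with the mean of probe sets, 64 added or trended variance, and 1 with the replicate block. Leaving out 1 array gave 0 to 4, 0 to 4 and 0 to 5 here, 0 to 1 in kidney at day 1, 2 to 4 for heart against kidney and 4 to 7 for kidney against brain at day 0, and 0 to 2 for the day 1 responses. Apart from these F tests, the replicate block changed no call against day 0; deviations of same-numbered arrays correlated at -0.33 to 0.15 in heart, -0.09 to 0.24 in kidney and -0.64 to 0.48 in brain, so the numbers were not taken to pair arrays. The probe set with the highest linear mean turned Cxcl12: 0.65 in heart at day 1, -2.25 for heart minus kidney and -0.22 for heart minus brain at day 0, and 1.30 for the day 1 responses; the mean of its probe sets gave -0.54 for heart minus kidney. That rule and the tissue weights each called 2 genes in the day 1 responses. In vessel, counts of 4, 5 and 2 became 2, 3 and 1 with 64 added, and the day 7 count was 4 with 1 added or with the linear-mean probe set. Sign changes of values called under neither setting are not listed. The causes were not tested.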
